A study of Mus musculus with 12 samples.

Results

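The late effect of losing the taurine transporter was read from 6 of the 12 arrays of the series, 3 of tibialis anterior muscle from old TauTKO mice and 3 from old WT mice. TauTKO mice lack a functional Slc6a6, the gene of the taurine transporter TauT, in every tissue. All mice were males of the C57BL6 strain, and the old animals were 18 months old according to the labels, which give an age of 3 months for the 6 arrays of young TauTKO and young WT. WT mice were littermates from crosses of heterozygous parents, so both genotypes share that background and differ in the transporter allele. The labels do not say whether each array is a separate mouse, and p-values then measure only the spread between these samples. The loss is present from birth and in the whole body, which limits the model to a lifelong and not muscle-specific deficiency.

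Taurine is an amino sulfonic acid that muscle holds at very high concentration and imports through TauT, where it serves as an organic osmolyte, modifies mitochondrial transfer RNAs and affects calcium handling. The tibialis anterior is a mainly fast-twitch muscle of the lower leg, and slow fibres are a small part of it. Cells under amino acid shortage or with misfolded proteins switch on known gene programs. These are the amino acid response driven by the transcription factor ATF4, the chaperones of the endoplasmic reticulum (ER) and the heat shock proteins of the cytosol.

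Each array gives 1 intensity per probe. Values below are log2 signals, the log2 of a probe's intensity over the 75th percentile of its array, so that 0 is the level of that percentile and 1 unit is a doubling. Levels of different probes cannot be set against each other, because probes differ in how well they bind. The 75th percentile, the measure of brightness of an array, was 429.8 to 474.0 in old WT and 478.7 to 562.1 in old TauTKO. The share of probes well above background on an old array was 65.5% to 74.3%, and 0 spots were saturated. All 6 old arrays lie on 1 slide. limma tested the 37417 probes that exceeded background throughout either old group. The word called is used of those that changed at least 1.8-fold with a Benjamini-Hochberg adjusted p below 0.05. The fast-twitch identity of the samples was plain in both groups, with log2 signals of 10.12 to 10.52 for the fast troponin Tnni2 and of 10.24 to 10.64 for the calcium buffer Pvalb.

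One of the 6 arrays stood apart before any comparison was made. Across all pairs of old WT arrays the median absolute difference of a probe was 0.156 to 0.178 log2 units, and between old TauTKO replicates 2 and 3 it was 0.163. Replicate 1 of old TauTKO differed from those by 0.259 and 0.269, and from the WT arrays by 0.327 to 0.356. At 2665 probes it lay at least 2-fold from the mean of the other 2 TauTKO arrays, above it at 766 and below it at 1899. This array is the one rich in slow-fibre transcripts, and each count below is therefore given with and without it.

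Transcripts of slow fibres and of epidermis were both high on that array. The mean log2 signal of 13 slow-fibre genes was 3.17 in old TauTKO replicate 1, against 1.00 and 0.67 in replicates 2 and 3 and 1.25 to 1.38 in old WT. Replicate 1 was picked as the old TauTKO array with the highest mean of this list, so its slow-fibre values are a description only. Over 18 measured genes of keratinocytes, the cells of the epidermis, the mean was 2.72 in replicate 1, against -2.19 and -2.22 in the other TauTKO arrays and -2.82 to -2.49 in old WT. On the 6 young arrays the same mean lay between -2.66 and -1.40. The keratinocyte list was drawn up after its genes had been seen on this array, so it is a description only. Lor, which encodes the cornified envelope protein loricrin, had a log2 signal of 5.93 in replicate 1, of -2.66 and -2.63 in replicates 2 and 3 and of -1.78, -2.58 and -3.01 in old WT. Krtdap, a keratinocyte differentiation protein, read 3.88 there, against -4.48 and -4.51 in the other TauTKO arrays and -4.25 to -3.67 in WT. Lce1a1, Dmkn, Krt10 and Crct1, all expressed in epidermis, completed the 6 probes on which this array was farthest from the other TauTKO arrays. None of these 6 was called, with limma adjusted p between 0.357 and 0.493 over all arrays.

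Genes of other tissues followed in part. The mean of 17 adipocyte genes was 2.45 in replicate 1, 0.71 and 1.31 in replicates 2 and 3 and 0.96 to 1.82 in old WT. For 14 genes of Schwann cells and myelin it was -0.10 in replicate 1, -0.72 and -0.80 in replicates 2 and 3 and -0.94 to -0.65 in WT. The mean of 18 immediate early genes was 0.80 on this array and -0.14 to 0.09 on the other old arrays. The median log2 fold change of these 3 lists turned from 0.24 to -0.21, from 0.18 to -0.08 and from 0.18 to -0.08 when replicate 1 was left out. Fast-fibre genes did not separate it, with a mean of 8.66 in replicate 1 and 8.72 in both other TauTKO arrays. The part of this array's other tissues in the genes below was not tested beyond leaving the array out.

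**Figure D1:**
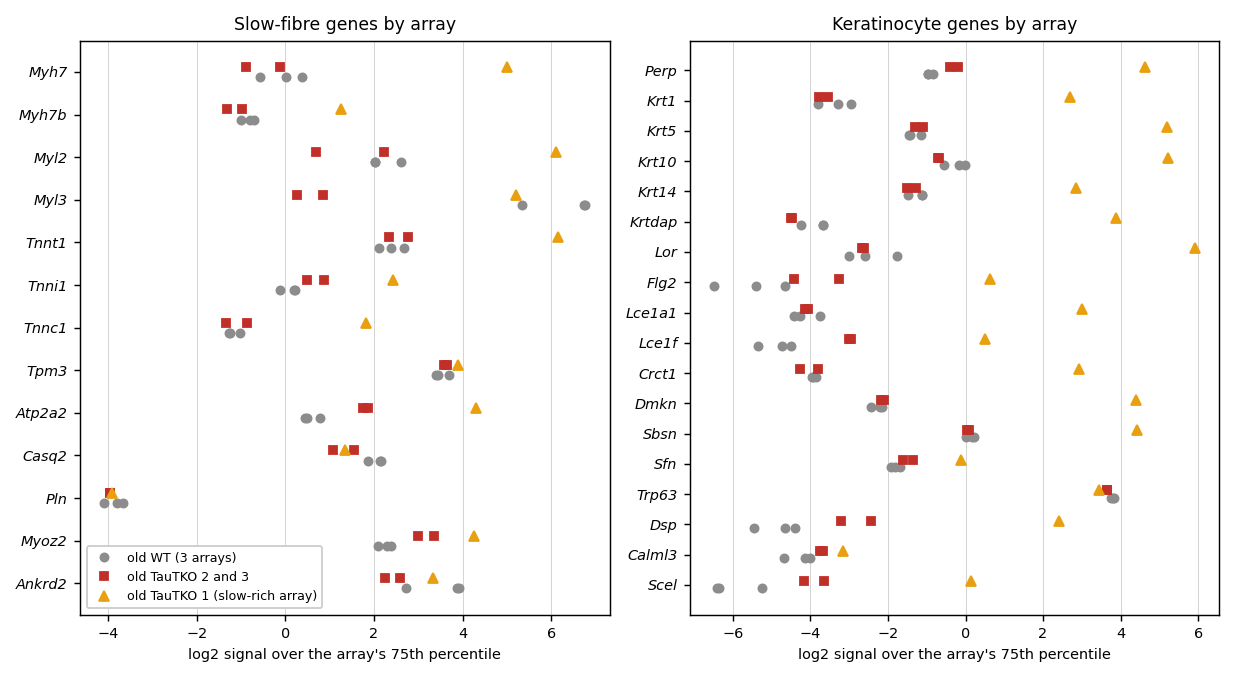
Log2 signal over the 75th percentile of the array for the slow-fibre genes (left) and the keratinocyte genes (right) that were tested, with 1 point per array, old WT as circles, old TauTKO 2 and 3 as squares and old TauTKO 1 as triangles. The triangle of Lor stands at 5.93 and those of most other genes lie far to the right of all other points. Exceptions include Tpm3, Casq2, Pln, Myl3, Ankrd2 and Trp63.

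The slow-fibre genes themselves did not move as a group. Of the 13, 9 had a positive and 4 a negative fold change, with a median of 0.79 that became -0.11 without replicate 1, beside -0.03 and -0.01 over all 18120 genes tested with 1 probe each. Myh7, the slow myosin heavy chain, read 4.99 in replicate 1 but -0.12 and -0.89 in replicates 2 and 3, inside or near the WT values of -0.57, 0.36 and 0.00. The same split held for Myl2, the slow regulatory light chain, at 6.11 against 2.24 and 0.68, and for Tnnt1, the slow troponin T, at 6.15 against 2.77 and 2.35. Their WT values lay between 2.01 and 2.67, and none of these 3 genes was called with or without the array.

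A few slow-fibre genes differed in all 3 TauTKO arrays. Myl3, the slow essential light chain, had log2 signals of 6.77, 5.33 and 6.74 in old WT and of 5.2, 0.84 and 0.25 in old TauTKO. Every TauTKO value was below every WT value, although replicate 1 came close to the lowest of them. The log2 fold change was -4.18 (standard error 1.07, limma adjusted p = 0.0451), and -5.73 without replicate 1 (limma adjusted p = 0.0018). In young mice it was -3.75 and not called (limma adjusted p = 0.143). The call depended on each of the other arrays, young ones included, since it ended when any of them was left out, and it ended also when arrays were scaled to the median, without a filter, with only old arrays in the fit and with the row of the array as a block.

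Atp2a2, the calcium pump SERCA2 of slow fibres and heart, showed the opposite direction. It read 0.45, 0.78 and 0.48 in old WT and 4.30, 1.85 and 1.74 in old TauTKO, so that the groups did not overlap. Over all arrays it missed the threshold (log2 fold change 2.06, standard error 0.54, limma adjusted p = 0.0503), and without replicate 1 it passed at 1.23 (limma adjusted p = 0.00624). A second, dimmer probe of Atp2a2 differed by 1.39 (limma adjusted p = 0.0628), or 0.83 without replicate 1, and was called in neither comparison. Myoz2, a Z-disc protein of slow fibres, was at 2.10 to 2.39 in WT and at 4.26, 2.98 and 3.35 in TauTKO, which was not called (log2 fold change 1.27, limma adjusted p = 0.0785). Casq2 and Ankrd2 had negative fold changes of -0.73 and -0.79 and were not called either. Tnni1, Tnnc1, Tpm3, Myh7b and Pln, the remaining members, had values between -0.09 and 1.16 and were not called.

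The probe of the targeted gene was checked next. The array holds 1 Slc6a6 probe, placed by mm9 coordinates at 91708620 to 91708679 of chromosome 6. It read 2.48, 2.84 and 2.48 in old WT and 3.72, 3.47 and 3.18 in the arrays labelled TauTKO. All arrays labelled TauTKO lay above all WT arrays, with a log2 fold change of 0.85 ± 0.19 (SE; limma adjusted p = 0.027), which goes against a label of lost transcript. The sources used here do not say whether the probe lies in the deleted part of the gene. Without replicate 1 the fold change was 0.72 and no longer called (limma adjusted p = 0.0844). All directions that follow take the labels as given.

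In old mice, 817 of 37417 probes were called (2.18%), 551 higher (1.47%) and 266 lower (0.711%) in TauTKO. Without old TauTKO replicate 1, 640 probes were called (1.71%), 409 higher (1.09%) and 231 lower (0.617%). Both comparisons shared 559 probes, of which 374 were higher and 185 lower. A further 258 were called only with the array, 177 of them higher, and 81 only without it, 46 of them lower. Rarres1 was the 1 probe called in either comparison whose sign turned. It is named here because of that, after its values were seen. Its log2 signal of 0.90 in replicate 1 stood against -2.69 and -2.68 in replicates 2 and 3 and -1.79 to -1.48 in WT.

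The counts rest on the spread of all 12 arrays. When only the 6 old arrays entered the fit, 290 probes were called, and 3 without replicate 1. The call count was 512 without old WT replicate 3 and 955 without old WT replicate 2. The methods' t-test, unadjusted and at that fold, passed 954 probes, 795 of them among the 817, and 0 passed after Benjamini-Hochberg adjustment. At an unadjusted limma p under 0.05 with no fold threshold there were 8853. The 3 values of old TauTKO did not overlap with those of old WT at 816 of the 817 probes, and at 28.1% of all probes tested.

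Most of the probes called in old mice had the same direction in young mice with a smaller fold. Of the 817, 785 had the same sign in young TauTKO against young WT and 105 were also called there. The same shares over all tested probes were not counted, so these counts have no base to be set against. The median size of the change was 1.18 log2 units in old mice, and the same probes had a median of 0.63 in the old direction in young mice. The members were chosen by their old fold change, so this gap between ages is a description. Tested directly, as the difference of the genotype effect between old and young, 0 probes were called by limma (lowest adjusted p 0.122), while 2049 had an unadjusted p under 0.05. Age and slide cannot be told apart, since all young arrays lie on 1 slide and all old ones on another.

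**Figure D2:**
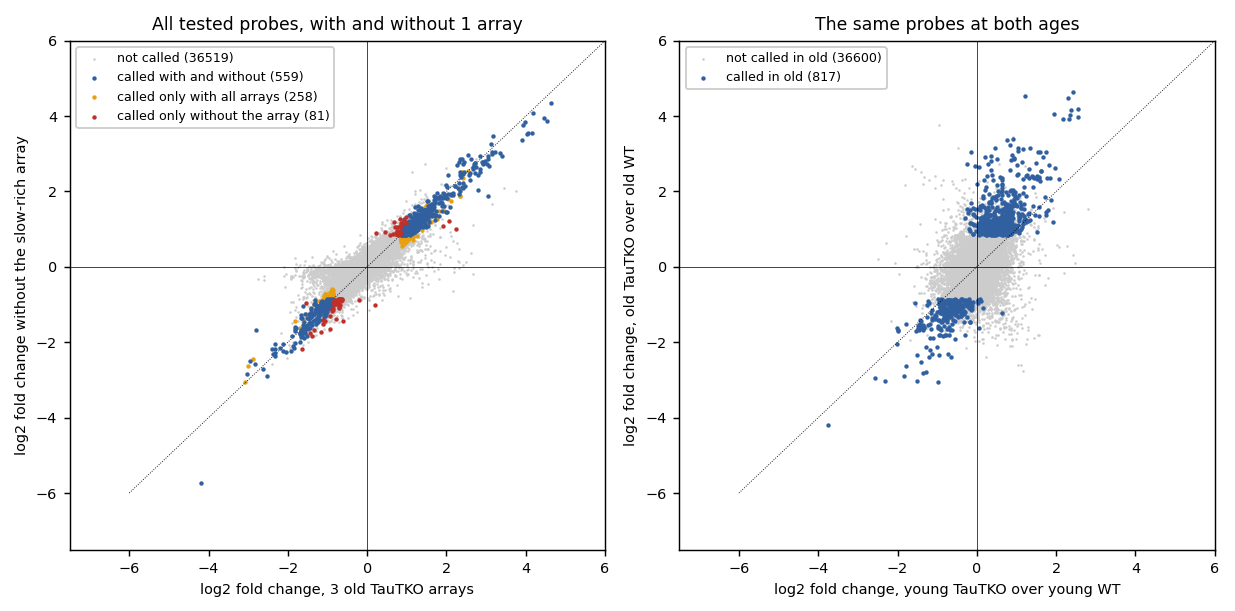
Log2 fold change of each of 37417 probes, old TauTKO over old WT, against the same without old TauTKO replicate 1 (left) and against young TauTKO over young WT (right), with the dotted line marking equal values. The 559 probes called in both comparisons lie close to that line on the left, and most of the 817 called probes on the right lie on the same side of 0 at both ages.

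Among the probes called with and without replicate 1, the 12 largest increases included Rab15, Ndrg4, Ccdc92 and Fam171b. Groups that did not overlap were a condition of this choice, as were both calls, so neither is further support. Rab15, a small GTPase of recycling endosomes, had log2 signals of -0.49, -0.54 and -0.30 in old WT and of 3.96, 3.49 and 3.79 in old TauTKO. The groups lay far apart and replicate 1 did not stand out, with a log2 fold change of 4.19 ± 0.22 (SE; limma adjusted p = 0.000123). In young mice the same probe differed by 2.54, past the threshold (limma adjusted p = 0.00393). A dimmer probe of the gene differed by 0.73 in old mice and was not called. Ndrg4, which is best known from brain and heart, read -1.24, -1.17 and -1.42 in WT and 3.00, 1.92 and 1.43 in TauTKO. Replicate 1 was the highest, and the log2 fold change of 3.39 became 2.95 without it (limma adjusted p = 0.000826 and 0.000663). Ccdc92, a coiled-coil protein, rose from -2.93, -2.39 and -2.44 to 1.41, 0.61 and 0.28. Fam171b, a membrane protein, rose from -2.45, -3.21 and -2.27 to 0.95, 0.71 and 0.12.

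Srgap3 and Zfp365, both active in neurons, rose as well. Srgap3, a regulator of Rac in neurite growth, read -2.56, -2.11 and -2.77 in WT and 0.94, 0.92 and -0.15 in TauTKO, with a log2 difference of 3.05 (limma adjusted p = 0.000644). Its 3 other probes, all dimmer, had fold changes of 0.19 to 1.29 and none was called. Zfp365, a DNA damage response protein found mostly in brain, read -2.97, -2.65 and -2.76 in WT and 0.37, 0.32 and -0.32 in TauTKO, a log2 fold change of 2.91. In young mice the difference at Zfp365 was 0.21. Ncam1, the neural cell adhesion molecule that muscle fibres show when they lose their nerve or regenerate, rose from -2.04, -2.02 and -1.85 to 0.73, 0.10 and -0.24. It was called at 2.16 (limma adjusted p = 0.00105), and another of its probes at 1.58, while the third differed by 0.33 and was not called.

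Cilp and Krt18 were in that top group too. Cilp, a matrix protein of cartilage and tendon that binds TGF-beta, was at 0.31, 1.46 and 0.51 in old WT and at 4.22, 3.69 and 3.83 in old TauTKO. All TauTKO arrays were near the same level, and the log2 fold change was 3.16 (standard error 0.28, limma adjusted p = 0.000673). Krt18, a keratin of simple epithelia, read -1.8, -1.07 and -0.60 in WT and 2.38, 1.44 and 1.27 in TauTKO. Its fold change of 2.85 became 2.51 without the array that held epidermal keratins, and both passed (limma adjusted p = 0.00817 and 0.0292). Ttc9 rose by 2.85 and Gm567 by 2.94 on the log2 scale. Gm5797 and Gm5458, predicted genes on chromosome 14, rose by 3.14 and 2.84, and 2 other probes of Gm5458 differed by 0.00 and -0.02 and were not called. A second probe of Gm5797 was called at 2.02. Near-identical copies could share these probes, so that the gene names are uncertain.

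Among the 12 largest decreases, chosen in the same way, were those of Frzb, Dkk3 and Ces1d. Frzb, a secreted inhibitor of Wnt signals, read -0.78, -1.13 and -0.55 in old WT and -3.33, -3.06 and -3.98 in old TauTKO. It fell by 2.64 on the log2 scale (standard error 0.29, limma adjusted p = 0.00126). Dkk3, also a secreted protein of the Wnt inhibitor family, was at 2.57, 3.64 and 2.60 in WT and at 0.43, 1.18 and 0.05 in TauTKO, a log2 difference of -2.38 (limma adjusted p = 0.00281). Dkk3 differed by -0.64 in young mice, where it was not called. Ces1d, a lipid esterase of fat and liver, read 2.72, 1.74 and 3.20 in WT and 0.73, -0.48 and -0.18 in TauTKO. It was low on the array with high adipocyte transcripts too, and its log2 fold change of -2.53 was -2.88 without that array.

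Further decreases were those of Dach2, Cux2 and Esm1. Dach2, a transcription cofactor that represses myogenin in innervated muscle, read -0.08, -0.45 and -0.04 in WT and -2.34, -1.67 and -2.01 in TauTKO. The log2 fold change was -1.82 (limma adjusted p = 0.00429). Both other probes of Dach2 were called lower too, but were not well above background on all TauTKO arrays. They entered the test through the WT group, so their calls support nothing further. Cux2, a homeobox factor, had a log2 fold change of -1.815. Its dimmer probe was called lower too, but it entered the test only through the WT group. That second call therefore supports nothing further. Esm1, a proteoglycan of endothelial tip cells, read -1.67, -1.25 and -1.32 in WT and -3.67, -4.52 and -3.05 in TauTKO, a log2 difference of -2.33 (limma adjusted p = 0.00318). Col9a1, a cartilage collagen, fell by 2.39 at 1 probe, whereas a second probe differed by -0.15 and was not called. Cntnap2, Efcab6, Cuzd1 and Golm1 fell by 1.88 to 2.20.

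**Figure D3:**
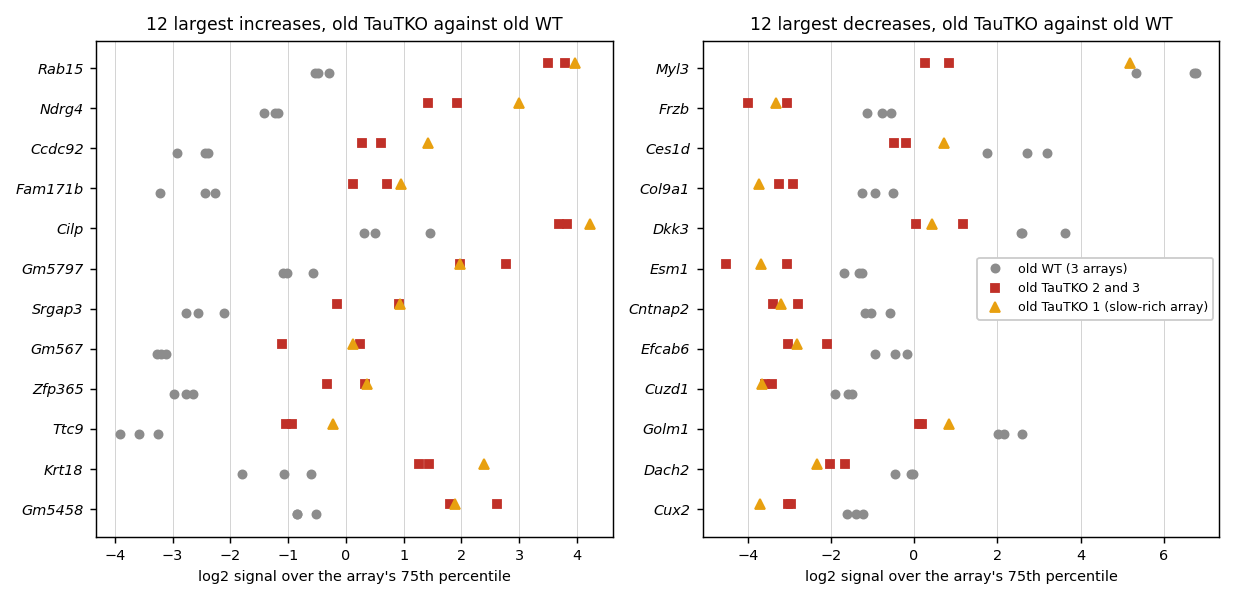
Log2 signal over the 75th percentile of the array on each old array, for the 12 probes with the largest increase (left) and the 12 with the largest decrease (right) among those called with and without old TauTKO replicate 1. Rab15 lies between -0.54 and -0.30 in WT and between 3.49 and 3.96 in TauTKO, and Myl3 is the gene with the widest spread among TauTKO arrays, from 0.25 to 5.2.

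Some probes were well above background in 1 group only, so that only a lower limit of the fold can be given. There were 158 such probes in TauTKO and 20 in WT, of 37417 tested. The share of all probes well above background was 65.5%, 74.3% and 65.5% on the old WT arrays. On the old TauTKO arrays it was 71.2%, 71.8% and 71.7%, so the 2 counts cannot be set against each other. These probes entered the test only through the group in which they were bright. They therefore had to differ, and their p-values and calls support nothing further. The limit sets the mean of the brighter group against the lowest signal well above background on the arrays of the other. Clca4a, a chloride channel regulator of epithelia, was at least 7.99-fold higher in TauTKO (limma adjusted p = 0.0025), Aqp5, a water channel of glands and lung, at least 2.88-fold, Igsf1 at least 2.34-fold and Chst5 at least 2.14-fold, and all 4 were called with and without replicate 1. Lce1f and Scel, both of the cornified envelope, were at least 6.5-fold and 4.02-fold higher. Lce1f read 0.50 in replicate 1 and -2.97 and -3.00 in the other TauTKO arrays and was called with and without it (limma adjusted p = 0.0431), and Scel was not called (limma adjusted p = 0.0636). On the WT side Gm3515 and Gm8700 were at least 2.65-fold and 2.64-fold higher and called only with all arrays, and Trim30b and Nsmaf, at 2.84-fold and 2.15-fold, were not called. The dimmer probes of Dach2 and Cux2, genes described above, were at least 3.09-fold and 1.99-fold higher in WT and called with and without replicate 1.

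Several genes of the amino acid response rose in old TauTKO. Of 28 measured members, 7 rose and 0 fell among those called, 25% of the list beside 2.77% of all 18120 genes (2.06% higher and 0.706% lower). Without replicate 1, 6 were called, beside 2.09% of all genes (1.49% higher and 0.596% lower). The list median was 0.29, or 0.19 without that array, and 19 of the 28 had a positive fold change. Psat1, an enzyme of serine synthesis, read -2.47, -1.8 and -1.84 in old WT and 1.20, -0.13 and 1.02 in old TauTKO. The groups lay apart by a log2 fold change of 2.73 ± 0.31 (SE; limma adjusted p = 0.00148), while a second, differently placed probe of the gene differed by -0.28 and was not called. Mthfd2, a mitochondrial enzyme of folate metabolism, rose from -1.49, -0.90 and -1.46 to 1.55, 0.40 and 1.92, and Asns, the enzyme that makes asparagine, from -0.57, -0.45 and -0.88 to 1.41, 0.59 and 1.79.

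The remaining called members of that list included a secreted factor and transporters. Gdf15, a cytokine released by stressed tissue, read -3.37, -3.24 and -2.95 in WT and -1.09, -1.95 and -1.66 in TauTKO, a log2 difference of 1.62 (limma adjusted p = 0.00443). Nupr1, a stress-induced nuclear protein, and Slc7a1 and Slc38a2, carriers of cationic and small neutral amino acids, rose by 1.29, 1.07 and 0.98, and the call of Slc7a1 was lost without replicate 1. In young mice Psat1, Mthfd2, Asns, Gdf15, Nupr1 and Slc7a1 differed by 0.29, 0.37, 0.52, 0.08, 0.46 and 0.07, and none of these was called, Nupr1 because of its fold (limma adjusted p = 0.032). Slc38a2 differed there by 1.096 (limma adjusted p = 0.0131), past the threshold. The difference between ages at Psat1, 2.44 log2 units, had an unadjusted limma p of 0.00022 and an adjusted p of 0.43. Ddit3, which encodes the stress factor CHOP, differed by 0.02, and Trib3 by 1.5 with old TauTKO replicate 3 at 2.22 and replicate 2 at 0.18, which was not called (limma adjusted p = 0.0671). These 2 genes are named after their values were seen.

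ATF4 binds an element with the core TGATGNAA. To show where such letters stand, the RefSeq promoters of GRCm38.p6, over the 250 bases before each start, were searched on both strands for the 9 named genes of the amino acid, ER and cytosolic chaperone lists, all of which are in the promoter table. Asns was the 1 gene with a match, shown here because it was called in old TauTKO, in a stretch of 53 bases on the minus strand of chromosome 6, chr6:7693210-7693262. The match runs from base 23 to base 16 before the start, written in capitals:
Asns: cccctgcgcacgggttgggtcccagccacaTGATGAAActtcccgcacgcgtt
The same letters stand in 3.45% of all 32851 promoters of that length. The ER stress element and the heat shock element were each searched in the same 250 bases as a fixed spelling. Those spellings stand in 0.113% and 0.466% of all promoters, and no promoter of the 9 genes matched either of them. Copies with other letters or farther from the start were not searched. The lack of a match therefore does not show that these genes lack the elements.

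Among ER chaperones, Xbp1 was called. Of 30 genes, 27 had a positive fold change with and without replicate 1, with a median of 0.34 and 0.31. The mean of the list was 1.40 to 1.45 in old WT and 1.72 to 1.79 in old TauTKO, so that the groups did not overlap. Xbp1, the transcription factor spliced by the ER sensor IRE1, was that 1 member, 3.33% of the list beside 2.77% of all genes. It read 4.33, 4.36 and 4.53 in WT and 5.23, 5.39 and 5.35 in TauTKO, with a log2 fold change of 0.91 ± 0.09 (SE; limma adjusted p = 0.00107), and was 0.96 without replicate 1. Hspa5, the main ER chaperone BiP, named here after its values were seen, read 4.6, 4.64 and 4.78 in WT and 5.22, 5.48 and 5.34 in TauTKO. Its difference of 0.67 had a limma adjusted p of 0.00674 and stayed under the fold threshold.

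Among chaperones of the cytosol, several HSP70 proteins and their partners rose. Of 32 genes, 23 had a positive fold change, with a median of 0.23, or 0.21 without replicate 1. Among these 32 genes, 6 rose among those called and 0 fell, 18.8% of the list beside 2.77% of all genes. Without replicate 1, 3 were called, beside 2.09% of all genes. The list mean was 3.64 to 3.74 in old WT and 4.04 to 4.11 in old TauTKO. Hspa1l, an HSP70 protein, read 0.95, 0.94 and 0.93 in WT and 2.63, 2.43 and 2.87 in TauTKO, a log2 fold change of 1.70 ± 0.12 (SE; limma adjusted p = 0.000319). Hspa1a, the stress-induced HSP70, rose from -1.56, -1.67 and -1.79 to 0.82, 0.47 and -0.19, with 2.04 over all arrays (limma adjusted p = 0.0195). That call was lost without replicate 1 (1.81, limma adjusted p = 0.0684) and when old WT replicate 1, old WT replicate 3 or old TauTKO replicate 2 was left out. The RefSeq starts of both genes lie head to head on chromosome 17, and a near-identical copy of Hspa1a may share its probe.

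Muscle-specific and J-domain partners followed the HSP70 genes. Hspb7, a small heat shock protein of muscle, read 2.54, 2.67 and 2.77 in WT and 4.03, 3.81 and 4.31 in TauTKO, a log2 difference of 1.39 (limma adjusted p = 0.0071). Dnaja4, a J-domain cochaperone, was at 3.82 to 4.12 in WT and 5.11 to 5.35 in TauTKO, and both of its probes were called at 1.24 and 1.23. Hspa2 and Hspa4l rose by 0.86 and 0.91 and were not called without replicate 1. Dnajb1, a J-domain protein that follows heat shock in many cells and is named after its value was seen, differed by 0.02.

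Carriers of osmolytes and genes of redox defence changed in part. Of 15 osmolyte and taurine genes, 3 rose among those called, 20% of the list beside 2.77% of all genes. These were Slc6a6 itself, Slc38a2 and Slc6a12, the betaine and GABA carrier of osmotic adaptation. The list median was 0.16, or 0.01 without replicate 1, where Slc6a6 was not called. Slc6a12 read -2.59, -3.20 and -2.98 in WT and -2.01, -1.39 and -2.06 in TauTKO, with a log2 difference of 1.1 (limma adjusted p = 0.0188), and its call was lost without old WT replicate 2 or 3, with only old arrays in the fit and with normexp, where it was 0.56. Of 22 redox and metal genes, 1 rose and 3 fell among those called, 18.2% of the list beside the same 2.77%. Gpx3, the secreted glutathione peroxidase, was at 4.79, 5.04 and 5.36 in WT and 3.72, 3.96 and 4.11 in TauTKO, a log2 difference of -1.14 (limma adjusted p = 0.00419), against -0.16 in young mice. Mgst1 and Gsta4, which conjugate glutathione, fell by 0.95 and 0.87, Mgst1 at both of its probes. Their log2 fold changes in young mice were -1.20 and -0.58, and Mgst1 passed the threshold there (limma adjusted p = 0.0049). The extracellular superoxide dismutase Sod3 rose by 1.14, a call lost in 9 of the 12 fits that each left out 1 array, with 0.84 without replicate 1 (limma adjusted p = 0.0839). Gsta4 differed by -0.77 without replicate 1, under the fold threshold, and its call was lost in 4 such fits.

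Several matrix genes, Loxl4, Timp1 and Fn1 among them, rose in old TauTKO. In bulk RNA, more cells of a type and more RNA per cell cannot be told apart. Of 32 matrix and fibrosis genes, 29 had a positive fold change with a median of 0.54. In young mice 32 had a positive fold change, also with a median of 0.54. In old mice 7 rose among those called, 21.9% of the list beside 2.77% of all genes. Without replicate 1, 4 were called, beside 2.09% of all genes. Loxl4, a collagen crosslinking enzyme, read -4.42, -4.30 and -4.56 in old WT and -1.78, -1.59 and -1.78 in old TauTKO, a log2 fold change of 2.71 ± 0.18 (SE; limma adjusted p = 0.000297). Loxl4 was well above background on 1 of 3 WT arrays and so entered the test through the TauTKO group. Its call is counted in the 21.9% and gives no further support. With normexp the log2 fold change of Loxl4 was 1.19 and still called. Its second probe was called higher too. Timp1, an inhibitor of matrix proteases, rose from -2.24, -1.97 and -2.33 to -0.51, -0.88 and -0.23, and Fn1, fibronectin, from 2.37, 2.37 and 2.11 to 4.03, 3.55 and 3.44. Col14a1 rose by 1.52 at 1 probe and differed by 0.15 at another, which was not called. The fibrillar collagens Col1a1 and Col3a1 and Thbs2 rose by 0.89, 0.88 and 1.02 and were not called without replicate 1.

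Tendon and fibroblast genes lay on the same side. Comp, a cartilage and tendon matrix protein, rose by 1.39, with WT arrays at 0.58 to 1.17 and TauTKO arrays at 1.85 to 2.54, and the call was lost without old WT replicate 1 or 3. Of 17 tendon and cartilage genes, 3 rose among those called, namely Cilp, Comp and Col11a1, 17.6% of the list beside 2.77% of all genes. The Col11a1 probe was well above background on 0 of 3 WT arrays, so it entered the test only through the TauTKO group. Its call, counted in the 17.6%, therefore supports nothing further. That call was lost under 8 of 13 other settings and in 11 of the 12 fits that each left out 1 array. Without replicate 1, 2 genes of this list were called, beside 2.09% of all genes. For 12 fibroblast genes, 11 had a positive fold change with a median of 0.51, and 0 were called. The fibroblast list had a mean of 2.23 to 2.44 in WT and of 2.76 to 2.94 in TauTKO. Among these, Gsn and Dcn differed by 0.81 and 0.46, with limma adjusted p of 0.0163 and 0.0499 and folds of 1.75 and 1.38. Col9a1, the cartilage collagen described above, went the other way.

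Some markers of macrophages and mast cells rose. The macrophage list of 20 genes had a mean of -0.28 to 0.26 in old WT and of 0.55 to 0.69 in old TauTKO, and its median was 0.66, or 0.70 without replicate 1. In young mice the list median was 0.21. Among those called in old mice, 6 rose and 0 fell, 30% of the list beside 2.77% of all genes. Without old TauTKO replicate 1, 3 were called, beside 2.09% of all genes. These were Lgals3, Adgre1 and, at 0.86, the lysosomal protein Cd68. Lgals3, a lectin of activated macrophages that keratinocytes also make, read 0.75, 1.44 and 1.16 in WT and 3.84, 2.46 and 2.49 in TauTKO. Its log2 fold change of 1.82 became 1.36 without replicate 1 (limma adjusted p = 0.0148 and 0.019). Adgre1, a macrophage surface protein, was at -1.70, -1.85 and -2.26 in WT and at -0.68, -0.92 and -0.74 in TauTKO, a log2 difference of 1.15 (limma adjusted p = 0.00553), while its second probe differed by 0.54 and was not called. C1qc and Mrc1 rose by 1.17 and 1.05, and both calls were lost without replicate 1, with 1.04 and 0.91 (limma adjusted p = 0.0592 and 0.0626).

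Mast cell genes gave 4 called of 8 measured, all 4 higher, 50% of the list beside 2.77% of all genes. Without replicate 1, 3 were called, beside 2.09% of all genes. Cpa3, the mast cell carboxypeptidase, read -0.90, -1.23 and -1.16 in old WT and 0.83, 0.55 and 0.31 in old TauTKO, a log2 fold change of 1.66 ± 0.19 (SE; limma adjusted p = 0.00149). Mcpt4 and Cma1, both chymases, rose by 1.22 and 1.18. Fcer1a, the IgE receptor chain, rose by 1.34, which was 1.27 and not called without replicate 1 (limma adjusted p = 0.0925). It was well above background on 2 of 3 WT arrays and so entered the test through the TauTKO group. Its call was lost under 5 of 13 other settings and in 5 of the 12 fits that each left out 1 array. In young mice Fcer1a differed by 1.57 and was not called (limma adjusted p = 0.0515). The mast cell list mean lay between -1.21 and -1.01 in WT and between -0.56 and -0.45 in TauTKO. The list median of 0.72 was 0.16 with no filter, 0.26 with probes above background on all 6 old arrays and 0.27 with normexp. In young mice the list median was 0.67.

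Lymphoid and interferon genes were highest in 1 WT array. Over 15 lymphoid genes the mean was 0.25 in old WT replicate 2, against -1.02 and -1.13 in the other WT arrays and -1.23 to -0.65 in TauTKO, and 0 genes were called. The interferon list read -0.11 in that array, -0.86 and -0.99 in WT replicates 1 and 3 and -1.17 to -0.29 in TauTKO. Cxcl9 fell by 1.05, the 1 call in the list, 6.25% of it beside 2.77% of all genes. That call was lost under 8 of 14 other settings and in 11 of the 12 fits that each left out 1 array. Endothelial genes had 2 members called lower, Esm1 and Apln, 12.5% of the list beside 2.77% of all genes. A positive fold change was found for 3 of 16, and the list mean was 1.52 to 1.77 in WT and 1.22 to 1.37 in TauTKO. Apln, a vascular peptide, fell by 1.32 and was at -1.42 without replicate 1, no longer called (limma adjusted p = 0.0508). Over 11 smooth muscle genes the median was -0.11 and 0 were called.

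The genes of fuel use fell short of a call but leaned one way. For complex I of the respiratory chain, 35 of 36 genes had a negative fold change, with a median of -0.21, and 0 were called. That lean rested in part on replicate 1, where the list mean was 6.61, against 6.95 and 6.90 in replicates 2 and 3 and 6.91 to 7.11 in WT. Without it 31 were negative and the median was -0.12. Fatty acid oxidation had 24 of 27 genes negative with a median of -0.36, or -0.30 without replicate 1, and 0 called. Among its members Etfb, an electron carrier, read 7.0, 6.85 and 7.14 in WT and 6.48, 6.71 and 6.67 in TauTKO, a difference of -0.38 at a fold of 1.30 (limma adjusted p = 0.0462). Of 23 glycolysis and glycogen genes 20 were negative and 0 called, with a median of -0.20. Aldoa and Gapdh differed by -0.19 and -0.16. In young mice the list medians of complex I, fatty acid oxidation and glycolysis were -0.197, -0.22 and -0.135, so the lean was present there too. Scaled to the median of each array, the shift of all probes moved from -0.07 to 0.02, and the glycolysis median from -0.20 to -0.10, so that these small values depend in part on the scaling.

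Contractile and calcium genes of fast fibres moved as little. Of 15 fast-fibre genes, 14 had a negative fold change with a median of -0.23, or -0.17 without replicate 1, and 0 were called. In young mice the median was -0.195. The fast-fibre mean was 8.88 to 9.05 in old WT and 8.66 to 8.72 in old TauTKO. The list's median was -0.14 when arrays were scaled to their median and -0.04 with quantile normalization. For excitation and contraction coupling 0 of 18 were called, with Cacna1s, the voltage sensor of the T tubule, at -0.37 and Jsrp1 at 0.25. Of 25 genes of atrophy and autophagy 0 were called either. Trim63, the ubiquitin ligase MuRF1, read 5.62, 5.57 and 5.84 in WT and 5.30, 5.41 and 5.57 in TauTKO, a difference of -0.25 with a limma adjusted p of 0.256, and Bnip3, a mitophagy receptor, differed by 0.10.

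A few genes of denervation and regeneration changed. Of 18 denervation and endplate genes, 2 rose and 1, Dach2, fell, 16.7% of the list beside 2.77% of all genes. Runx1, a transcription factor that rises in denervated muscle, was at -2.79, -2.94 and -3.10 in old WT and -1.37, -1.62 and -1.51 in old TauTKO, with 2 called probes at 1.45 and 1.31. Chrnb1, the beta subunit of the acetylcholine receptor, rose from 0.64, 0.81 and 0.68 to 1.62, 1.75 and 1.73, a log2 difference of 0.99 (limma adjusted p = 0.00117). Of 16 embryonic and regeneration genes, 1 rose and 1 fell among those called, 12.5% of the list beside 2.77% of all genes. Ncam1 was the one that rose. Myl4, the embryonic light chain, fell by 1.21 and was at -1.18 and not called without replicate 1 (limma adjusted p = 0.0773). Myh3, the embryonic heavy chain, named after its values were seen, read -0.78, 0.41 and -0.64 in WT and 2.41, 1.12 and 1.29 in TauTKO, a difference of 1.94 that was not called (limma adjusted p = 0.129). Gldn, a nodal protein of the Schwann cell list, rose by 2.20 (limma adjusted p = 0.00394). It was the 1 called of 14, 7.14% of the list beside 2.77% of all genes.

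The cell cycle inhibitors and p53 targets had 3 called of 24, all higher, 12.5% of the list beside 2.77% of all genes. Eda2r, a p53-induced receptor, read -4.33, -3.74 and -4.83 in old WT, where it was well above background on 1 array, and -2.27, -2.71 and -3.12 in old TauTKO, a log2 fold change of 1.60 and a second probe that was called higher too. Eda2r therefore entered the test through the TauTKO group, and its call, counted in the 12.5%, gives no further support. With normexp the Eda2r value was 0.54 and not called, and the call was also lost with only old arrays in the fit. Bbc3, the pro-apoptotic protein PUMA, rose from -1.28, -0.44 and -0.92 to 0.75, 0.41 and 0.14, and Cdkn2b, the inhibitor p15, by 0.91, each also without replicate 1. A second Cdkn2b probe differed by 0.55 and was not called. Cdkn2a, its neighbour that encodes p16, is named after its values were seen. Its probe was well above background on all 3 TauTKO arrays, at -1.78, -1.02 and -1.79, and on 1 of 3 WT arrays, which read -4.70, -2.89 and -5.20. The groups did not overlap, and the difference was not called (limma adjusted p = 0.0711).

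Among 23 proliferation genes, E2f2 and Mcm6 were called higher, 8.7% of the list beside 2.77% of all genes. E2f2, a factor of entry into S phase, read 0.36, 0.58 and 0.46 in old WT and 2.24, 1.95 and 1.78 in old TauTKO, a log2 fold change of 1.52 ± 0.17 (SE; limma adjusted p = 0.00134), against 0.02 in young mice. Mcm6, a subunit of the replicative helicase, rose by 1.29, or 1.02 without replicate 1. In the clock list 0 of 19 genes were called, and the output genes Tef and Dbp differed by -0.13 and -0.04 with overlapping groups. The stress factor Atf3 rose by 1.75. It was the 1 call among 18 immediate early genes, 5.56% of the list beside 2.77% of all genes. The call was lost in 9 of the 12 fits that each left out 1 array, and under 4 of 14 other settings. Among those 9 was the fit without replicate 1 (1.70, limma adjusted p = 0.105).

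**Figure D4:**
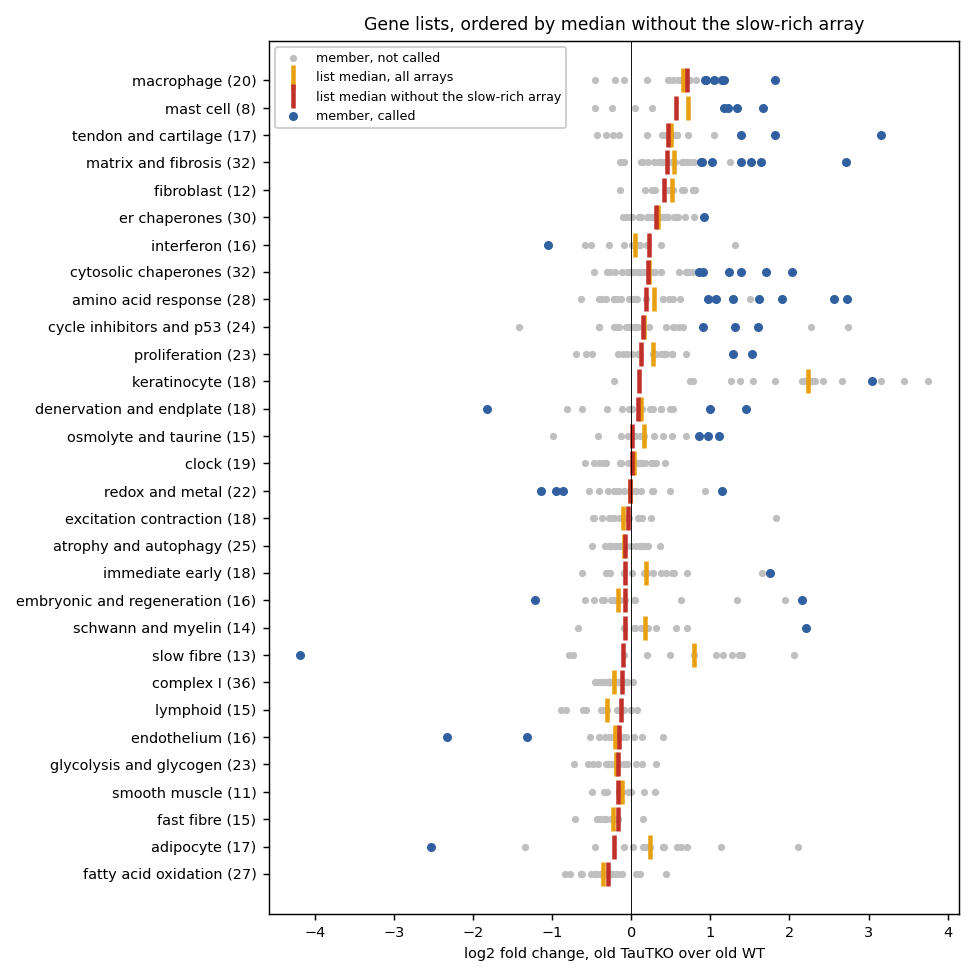
Log2 fold change of old TauTKO over old WT for the tested members of each gene list (number of genes in brackets), called members as dark points, with the list median over all arrays and without old TauTKO replicate 1 as upright marks. The medians of the macrophage, mast cell, tendon and matrix lists stay on the right with and without that array, while those of the slow-fibre and keratinocyte lists move from 0.79 and 2.23 to -0.11 and 0.10.

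The 6 named genes with the largest change among those called only without it all fell. Adcy1, an adenylyl cyclase, read -3.02, -3.23 and -2.61 in old WT and -3.51, -4.81 and -5.43 in old TauTKO, with -2.17 without replicate 1 (limma adjusted p = 0.0228). Adig, a gene of fat cell differentiation, was at 1.54, 0.73 and 1.37 in WT and 0.52, -0.82 and -0.10 in TauTKO, with -1.67 without replicate 1 (limma adjusted p = 0.0494) and a second probe that was called over all arrays at -1.25. Alkal2 was well above background on 1 of the 3 TauTKO arrays and Adcy1 on 2, so both entered the test through the WT group. Fam83d, Gm9693, Alkal2 and Zfp750 fell by 1.73, 1.76, 1.66 and 1.45 without the array. Zfp750, a regulator of epidermal differentiation, read -1.79 in replicate 1 and -4.26 and -4.36 in the other TauTKO arrays, against -3.03 to -2.59 in WT.

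Around Slc6a6, within 10 Mb on either side on chromosome 6, 374 probes were tested, of which 4 were called higher and 5 lower, beside 2.18% of all probes called.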

How the data were processed

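Total RNA of tibialis anterior muscle was hybridised in 1 colour to SurePrint G3 Mouse arrays. The authors deposited the scanner output of each array from Agilent Feature Extraction 10.10.1.1 as the submitters' processing notes and file headers give. It holds a processed intensity per spot on a linear scale after background subtraction and with no scaling between arrays. A second deposited file gives the intensity of the same arrays rounded to whole numbers. There the first and second replicate of each old group carry each other's values, and replicate numbers here are those of the scanner output. The normalization used by the authors is not given in the sources used here. Coordinates of probes are those of mm9 in the files.

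Control and outlier spots were left out, log2 intensity minus each array's 75th percentile was taken, and spots of a probe were averaged (R 4.3.3). limma 3.58.1 (lmFit, eBayes) fitted 4 group means over 12 arrays, and all adjusted p-values are from that fit or, without old TauTKO replicate 1, from the fit of 11 arrays. Gene lists use the brightest probe of a gene. Precision is limited by having 3 arrays a group. The procedure was tested on simulated data.

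The members, gene lists and genes were chosen with earlier results of these data known. Named are Slc6a6, the 12 probes changed most in each direction among those called with and without replicate 1 and well above background on all 6 old arrays with groups apart, all slow-fibre genes, up to 4 called members of each other list (otherwise 2 of high level), 6 probes each by the distance of replicate 1 and by calls made only without it, and up to 6 probes each way well above background in 1 group. Where a list had further called members, some were named after their values were seen. Alternatives were other scalings, normexp with an offset of 50, the rounded values, other filters, outlier spots kept, only old arrays, an intensity trend, array weights, the methods' t-test, other fold thresholds, 1 probe a gene, a block for the replicate number and leaving out each array. A block for the slide row of each array and the keratinocyte list were added after the data were seen. Replicate numbers did not pair the samples, since the correlations of deviations of same-numbered old arrays were -0.11, 0.04 and -0.02.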

Additional observations from a re-analysis of the deposited data

How the results depend on the processing

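Over 110 genes chosen by the rule for named genes, 0 values changed sign with a call under the alternatives run. Rarres1, outside that rule, turned its sign without old TauTKO replicate 1, and genes named after their values were seen were not all run. The number of probes called was 817 (551 higher, 266 lower), and 640 without old TauTKO replicate 1 (409 higher, 231 lower). With normexp background correction it was 466 (313 higher, 153 lower), and 369 without that array (240 and 129). With only old arrays in the fit it was 290 (198 and 92), and 3 without the array (3 and 0). The methods' t-test with Benjamini-Hochberg adjustment called 0 probes in either comparison, and without adjustment 954 and 766. With no fold threshold 2517 were called (1463 and 1054), and 1555 without the array (939 and 616). With no filter 268 were higher without the array. With 1 probe a gene 502 were called, 128 of them lower. Scaled to the median, 885 were called, 78.1% of them higher, against 67.4% in the comparison as reported. With 1 array left out the count ranged from 512 to 955, the higher ones from 349 to 646 and the lower ones from 163 to 359.

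For Slc6a6 the log2 fold change was 0.72 to 0.99 over arrays left out, and it was not called with 0.84 (percentile over probes above background on all arrays), 0.85 (quantile normalization, no filter and only old arrays), 0.78 (array weights) and 0.73 (row block). The slow-fibre median was -0.11 to 1.37 over arrays left out. For the difference of the genotype effect between old and young, 1 probe was called when scaled to the median, with quantile normalization and with normexp, an unnamed transcript, and 2 probes with the replicate block, Gm5797 and Gm5458, against 0 otherwise and over arrays left out. The replicate block called 744 probes, 719 of them among the 817, and 507 without the array; the row block called 700, with 585 without it. The cause of these changes was not tested. With 3 arrays per group, and probes near background having the widest spread, a miss of the threshold does not show that a gene did not change.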
